A study of Mus musculus with 4 samples.

Results

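*Cxcl9*, *Cxcl10*, *Cxcl16*, *Cxcr3* and *Cxcr6* make up the CXCR3 and CXCR6 chemokine axes, 3 ligand genes and 2 receptor genes. They were taken by symbol, and all 5 symbols were found among the 32285 genes listed for the CD45 sort and the 31053 genes listed for the T cell sort. The cells came from B16ZsG tumors, which grew from 1 clone of the mouse melanoma line B16-F10 carrying a lentiviral, doxycycline-inducible gene for the fluorescent protein ZsGreen (ZsG), injected under the skin of wild-type C57BL/6 mice. All mice drank doxycycline before the tumors were taken on day 8, and an immune cell with ZsG had acquired tumor material. Immune cells sorted on CD45 (the CD45 sort) or on CD45 and TCRb (the T cell sort) were each divided by ZsG into a negative and a positive gate, and each of the 4 gates gave 1 single-cell RNA library. All 4 groups shared the mouse strain, the tumor line, doxycycline and the day, no library came from a mouse without a tumor, and the sources used here do not give the number and age of the mice behind each library. The ZsG-positive gate of the CD45 sort took bright cells, and the paper states that most lymphocytes with ZsG were sorted as ZsG-negative there.

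CXCL9 and CXCL10 are secreted chemokines that bind CXCR3, a receptor of effector T cells, NK cells and plasmacytoid dendritic cells, and both genes are switched on by interferons, CXCL9 chiefly by interferon-gamma. CXCL16 is made as a membrane-anchored chemokine that the proteases ADAM10 and ADAM17 can release, and it binds CXCR6, a receptor of effector and tissue-resident T cells and of innate lymphoid cells. In tumors, myeloid cells are known sources of these ligands, and the receptors help T cells to enter the tumor and to stay near antigen-presenting cells.

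*Cxcl9* (chr5:92321347-92328079) and *Cxcl10* (chr5:92346638-92348889) are neighbors on the minus strand of chromosome 5, with 18558 bases between them (GRCm38, GENCODE vM21). *Cxcl16* lies on chromosome 11 (chr11:70453983-70459984, minus strand), *Cxcr6* on chromosome 9 (chr9:123806475-123811760, plus strand) and *Cxcr3* on the X chromosome (chrX:101731535-101734269, minus strand), and all 5 are annotated as protein coding. The promoters of *Cxcl9* and *Cxcl10* are shown because the ratio of their transcripts differed between classes of myeloid cells. Each run holds the 250 bases before the annotated start, 5′ to 3′ on the minus strand, from RefSeq on GRCm38.p6, and spans chr5:92328080-92328329 for *Cxcl9* and chr5:92348890-92349139 for *Cxcl10*. Capitals mark matches to 4 letter patterns searched on both strands.
Cxcl9: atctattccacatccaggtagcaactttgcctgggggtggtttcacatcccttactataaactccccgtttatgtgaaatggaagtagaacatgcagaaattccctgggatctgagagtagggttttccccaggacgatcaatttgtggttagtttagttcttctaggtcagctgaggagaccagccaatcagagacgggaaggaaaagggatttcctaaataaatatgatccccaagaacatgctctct
Cxcl10: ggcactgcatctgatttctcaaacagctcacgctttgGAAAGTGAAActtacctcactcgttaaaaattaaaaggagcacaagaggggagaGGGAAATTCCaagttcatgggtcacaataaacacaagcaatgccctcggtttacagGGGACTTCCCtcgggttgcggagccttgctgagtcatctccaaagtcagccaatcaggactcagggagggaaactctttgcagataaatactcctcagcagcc
The *Cxcl10* run holds GAAAGTGAAA at 213 to 204 bases before the start, a match to GAAA and GAAA set 2 bases apart, the core of the interferon-stimulated response element, which 2.98% of 32851 mouse promoters of the same length hold. It also holds GGGAAATTCC at 159 to 150 bases (GGGA and TTCC set 2 bases apart, in 1.21% of promoters) and GGGACTTCCC at 103 to 94 bases (GGGA, TT and CC each set 1 base apart, in 0.98%), spellings of the NF-kappaB site. The *Cxcl9* run holds none of these 3 letter patterns and neither run holds TTCNNNGAA, a spelling of the gamma-activated site that is in 7.02% of promoters. A missing match says only that these letters are not in this window.

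The deposited matrices count unique molecular identifiers (UMIs), each standing for a captured RNA molecule. After the limits on genes and mitochondrial UMIs given in the study's methods, 4698 ZsG-negative and 4124 ZsG-positive cells of the CD45 sort and 948 and 1879 cells of the T cell sort were kept, with a median of 5769.5 to 9931 UMIs per cell. Cells were clustered without the 5 genes and clusters were named from marker genes, so that each class name stands for cells like that type. Clusters with both T cell and macrophage transcripts were set apart as mixed cells (65, 265, 2 and 15 cells in the order above). The name was given to whole clusters, and 52 of the 65 ZsG-negative cells lay in a cluster without a *C1qa* UMI in that gate. In the T cell sort, T cell classes hold cells that passed the limit on CD3 transcripts, and 659 and 780 cells did, while the rest of the sort included monocytes, macrophages and dendritic cells. The labels of the T cell sort contradict each other on which library is ZsG-positive, and the larger library was taken as such from the name of its table. The gates of a sort shared 6 (CD45) and 1 (T cell) barcodes. Levels are given as CPM, the UMIs of a gene per 1000000 UMIs of the same cells. The matrices name different versions of Cell Ranger, the program that counted the UMIs (7.0.0 for the CD45 sort, 6.1.2 for the T cell sort). They also list different numbers of genes. What this does to levels and shares set side by side between the sorts was not tested. There was 1 library per gate and sort and no replicate, so no test was made, and brackets give 95% intervals for counting error only (exact Poisson for levels, exact binomial for shares of cells, exact conditional for ratios).

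*Cxcl10* had the most UMIs of the ligands in each library and had its highest levels in classical monocytes, the Ly6c2-, Vcan- and Chil3-expressing cells that enter tumors from blood. In the CD45 sort it stood at 11430 CPM [11160 to 11710] in 65 cells of the ZsG-negative gate and at 4278 CPM [4233 to 4324] in 964 cells of the ZsG-positive gate. In the T cell sort it stood at 6782 CPM [6471 to 7104] in 31 ZsG-negative and 6658 CPM [6445 to 6876] in 63 ZsG-positive cells. Classical monocytes thus ranked above every other class in all 4 libraries, and the ZsG-negative monocytes of the CD45 sort above the others. Non-classical monocytes, which patrol vessels, came next with 4505 CPM [4392 to 4619] in 168 ZsG-negative cells and 2337 CPM [2126 to 2563] in 33 ZsG-positive cells. DC2, named for the conventional dendritic cells that prime CD4 T cells, had 2841 CPM [2647 to 3046] in 25 and 1274 CPM [1245 to 1304] in 371 cells. The 371 ZsG-positive cells also held the macrophage gene *C1qa* at 860.9 CPM, against 0 in the 25 ZsG-negative cells, so the gates may differ in make-up. Macrophages, named by C1q genes, *Apoe* and *Trem2*, had 1624 CPM [1604 to 1643] in 1320 ZsG-positive cells of the CD45 sort and 1402 [1331 to 1476] and 1639 [1591 to 1688] CPM in 57 and 189 cells of the T cell sort. The intervals of the ZsG-positive macrophages of the 2 sorts overlapped, though the sorts were counted with different Cell Ranger versions. Lowest among the conventional dendritic cells was DC1, the cross-presenting type, with 252 CPM [203 to 310] in 27 ZsG-negative and 501 CPM [466 to 537] in 93 ZsG-positive cells.

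*Cxcl9* was spread more evenly over myeloid classes. Classical monocytes held 2612 CPM [2482 to 2746] and 2093 CPM [2061 to 2125] in the ZsG-negative and ZsG-positive gates of the CD45 sort and 2689 [2495 to 2895] and 1909 [1795 to 2027] CPM in those of the T cell sort. DC2 held 2705 CPM [2516 to 2905] and 1753 CPM [1719 to 1788], and ZsG-positive macrophages of the CD45 sort 2338 CPM [2315 to 2362]. The intervals of DC2 and classical monocytes overlapped in the ZsG-negative gate, so these classes could not be ranked there, whereas macrophages stood above both in the ZsG-positive gate. In the T cell sort DC1 and DC2 fell into a single cluster, whose 70 ZsG-positive cells held 1926 CPM. Macrophages of the T cell sort had less, 1203 CPM [1137 to 1271] and 1495 CPM [1449 to 1542]. DC1 had 1427 CPM [1306 to 1557] and 938 CPM [890 to 987], well above its *Cxcl10*. Non-classical monocytes stood lowest of these classes, at 277 CPM [250 to 307] and 223 CPM [162 to 301].

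Macrophage clusters of the ZsG-positive CD45 gate differed among themselves. The cluster led by *Gbp2b*, *Ly6i* and *Fcgr4* (660 cells) held 3244 CPM of *Cxcl9* and 2507 CPM of *Cxcl10*. Clusters led by *Pf4*, *Ccl7* and *Spp1* (386 cells) and by *Ccl8*, *Ms4a7* and *C1qa* (274 cells) held 1307 and 1895 CPM of *Cxcl9* and 895 and 734 CPM of *Cxcl10*. The *Gbp2b*-led cells, whose leading genes are induced by interferon-gamma, were thus the richest macrophage source of both CXCR3 ligands. Hypoxic macrophages, marked by *Hilpda*, *Arg1* and *Nos2* (386 cells), had 760 CPM of *Cxcl9* and 894 CPM of *Cxcl10*, and cycling macrophages (251 cells) 1325 and 1556 CPM. Among ZsG-positive classical monocytes, the *Chil3*- and *Ifitm6*-led cluster (301 cells) held 7833 CPM of *Cxcl10*, the cluster led by *Rsad2*, *Ifit2* and *Ifit3* (209 cells), genes of the type I interferon response, 4248 CPM, and the *Vcan*-, *Osm*- and *Il1b*-led cluster (454 cells) 2353 CPM. *C1qa* stood at 1315 CPM in the *Rsad2*-led cluster, against 115 CPM in the *Chil3*-led and 305 CPM in the *Vcan*-led cluster. Hypoxic macrophages had 1201 CPM of it. Clusters were drawn on the same cells, so their differences are a description.

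**Figure D1:**
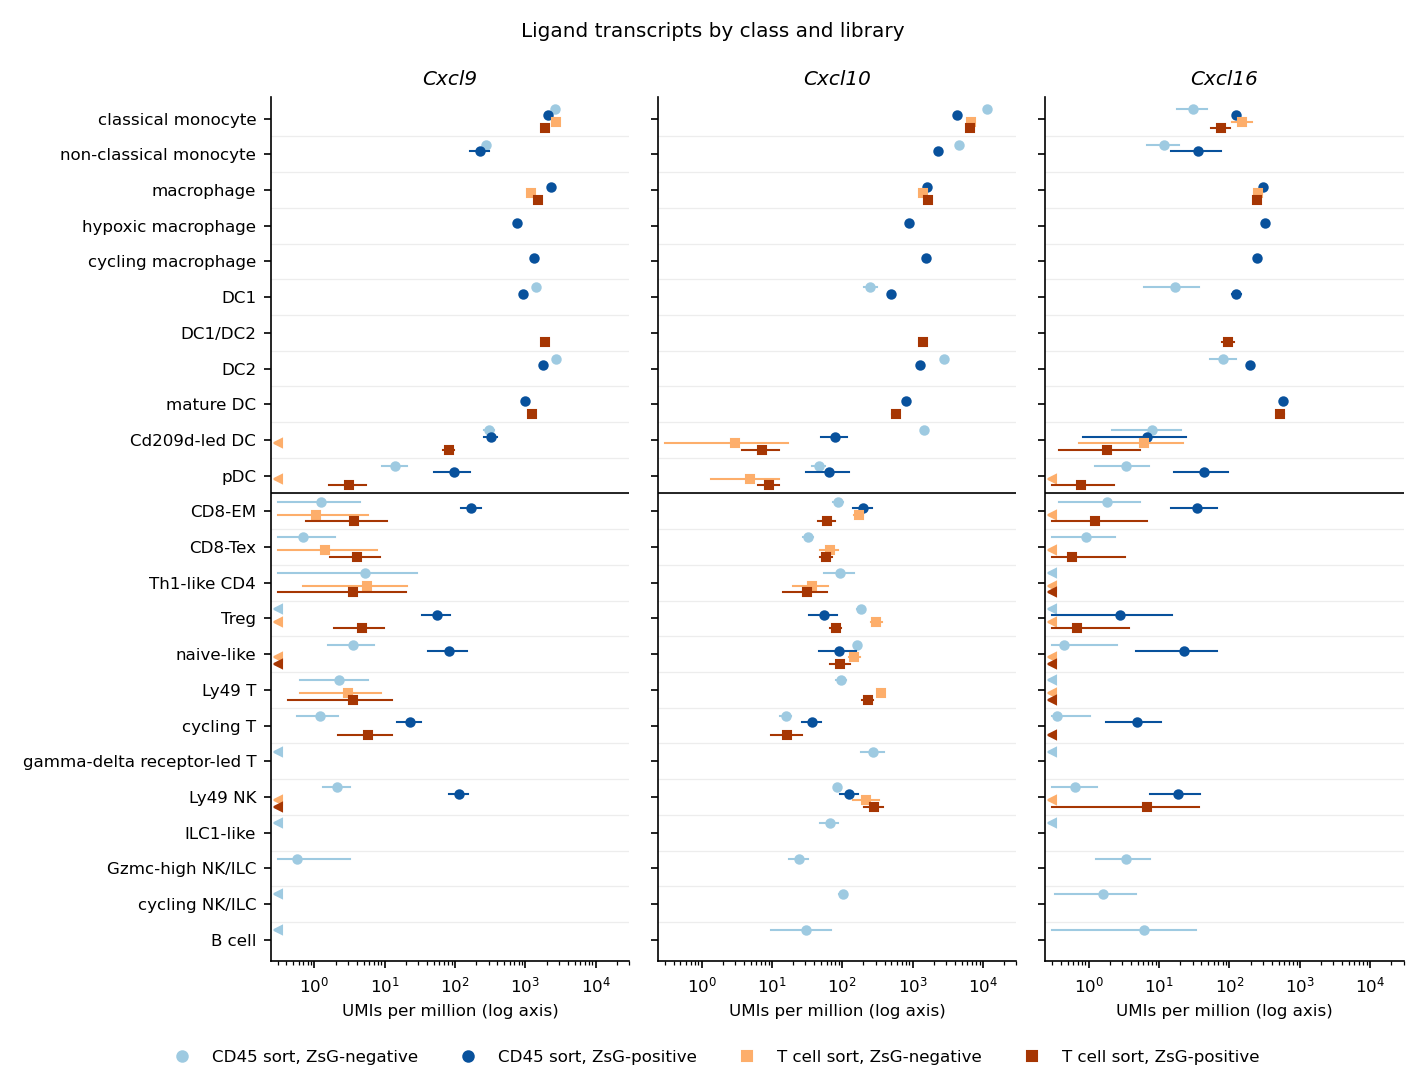
Level of each ligand gene (x axis, CPM on a log axis) in each class (y axis), with 1 point per library and 95% Poisson intervals for counting error, and triangles at the left edge for classes with no UMI. Myeloid classes stand above the line and lymphoid classes below it, and *Cxcl10* spans from 11430 CPM in ZsG-negative classical monocytes to under 400 CPM in the lymphoid classes.

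The balance of the CXCR3 ligands set monocytes apart from DC1, while macrophages and DC2 lay on either side of equal UMIs. It also differed between the gates within several classes. UMIs are counted at the 3′ end and carry no gene length, but capture can differ between genes, so the ratio was compared between classes and not read as a ratio of molecules. The log2 ratio of *Cxcl10* to *Cxcl9* UMIs was 4.02 [3.87 to 4.18] in non-classical monocytes of the ZsG-negative gate and 3.39 [2.93 to 3.87] in those of the ZsG-positive gate. In classical monocytes it was 2.13 [2.05 to 2.21] and 1.03 [1.01 to 1.06] in the CD45 sort and 1.33 and 1.80 in the T cell sort. Macrophages of the CD45 sort had a ratio on the other side of 0, at -0.53 [-0.55 to -0.50], while hypoxic and cycling macrophages each stood at 0.23 and the macrophages of the T cell sort at 0.22 and 0.13. The conventional dendritic cells other than ZsG-negative DC2 leaned to *Cxcl9*. The ratio was -2.50 [-2.84 to -2.17] and -0.90 [-1.03 to -0.78] in DC1 and 0.07 [-0.07 to 0.22] and -0.46 [-0.50 to -0.42] in DC2. It was -0.31 and -1.10 in the ZsG-positive mature DC of the CD45 and the T cell sort. *C1qa* stood at 463, 861 and 871 CPM in ZsG-positive DC1, DC2 and mature DC of the CD45 sort. It stood at 0 in ZsG-negative DC1 and DC2 and in mature DC of the T cell sort, and its part in these ratios was not tested. In the CD45 sort both monocyte classes thus stood above DC1, DC2 and the ZsG-positive mature DC. No class of non-classical monocytes was found in the T cell sort, where classical monocytes stood above the ZsG-positive mature DC and the joint cluster of DC1 and DC2 (-0.43 in its ZsG-positive cells). A dendritic class led by *Cd209d* lay on either side of 0, at 2.24 [1.99 to 2.50] in the ZsG-negative and -2.05 [-2.77 to -1.38] in the ZsG-positive gate of the CD45 sort and at -3.47 [-4.46 to -2.62] in the ZsG-positive gate of the T cell sort, the last from 12 *Cxcl10* and 133 *Cxcl9* UMIs.

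**Figure D2:**
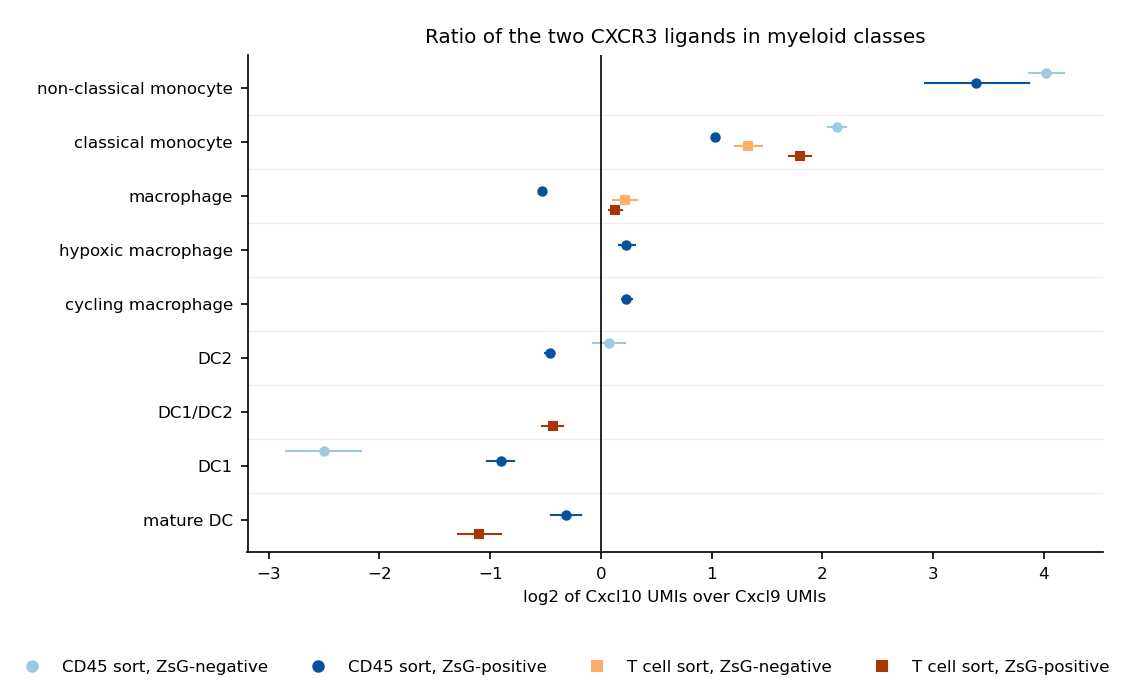
Log2 ratio of *Cxcl10* to *Cxcl9* UMIs (x axis) in 9 myeloid classes (y axis; pDC and the *Cd209d*-led class are not drawn), 1 point per library with the exact conditional 95% interval, and a vertical line at equal UMIs. Among the classes drawn, ZsG-negative non-classical monocytes lie at 4.02 on the *Cxcl10* side and ZsG-negative DC1 at -2.50 on the *Cxcl9* side.

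*Cxcl16* followed another order, with mature DC at its head in the ZsG-positive gates. These cells, marked by *Ccr7*, *Fscn1* and *Ccl22*, are dendritic cells that have taken up antigen and are ready to migrate. They held 575 CPM [530 to 623] in 76 ZsG-positive cells of the CD45 sort and 525 CPM [468 to 588] in 53 ZsG-positive cells of the T cell sort. *C1qa* stood at 871 CPM in the former and at 0 in the latter CPM, and the intervals of *Cxcl16* overlapped. Hypoxic macrophages followed with 321 CPM [302 to 341], macrophages with 304 CPM [295 to 312] in the CD45 sort and 256 [226 to 288] and 247 [228 to 266] CPM in the T cell sort, and cycling macrophages with 250 CPM [237 to 263]. The intervals of hypoxic macrophages and macrophages of the CD45 sort overlapped, as did those of both gates of the T cell sort. DC2 had 82.4 CPM [52.2 to 124] and 199 CPM [188 to 211], DC1 16.8 CPM [6.18 to 36.6] and 125 CPM [108 to 144], and non-classical monocytes 11.8 CPM [6.76 to 19.2] and 36.4 CPM [14.6 to 74.9]. In classical monocytes the level was 30.9 CPM [18.3 to 48.8] and 123 CPM [115 to 131] in the CD45 sort and 152 CPM [109 to 207] and 75.8 CPM [54.7 to 103] in the T cell sort.

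Plasmacytoid dendritic cells (pDC), which are known for type I interferon, had little *Cxcl10*. In 21 ZsG-positive cells of the CD45 sort their *Cxcl9* was 95.2 CPM (13 UMIs) and their *Cxcl16* 44.0 CPM (6 UMIs), with *C1qa* at 169 CPM. In the other libraries *Cxcl9* was at most 14.0 CPM and *Cxcl16* at most 3.36 CPM. The *Cxcl10* of pDC was 46.4 and 65.9 CPM in the CD45 sort and 4.97 [1.35 to 12.7] and 9.14 [6.36 to 12.7] CPM in 92 and 478 cells of the T cell sort. The *Cd209d*-led dendritic class had 1457 CPM [1354 to 1567] of *Cxcl10* in 52 ZsG-negative cells of the CD45 sort, where *Lyz2*, a monocyte and macrophage gene, stood at 2729 CPM. In its 34 ZsG-positive cells *Cxcl10* was 77.7 CPM with *Lyz2* at 179 CPM, and in the T cell sort 3.02 and 7.32 CPM. The part of monocyte transcripts in the higher value was not tested.

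Shares of cells were compared after each cell had been thinned to 2000 UMIs, since deeper cells show more genes. *Cxcl10* was seen in 86.2% [75.3 to 93.5] of 65 ZsG-negative and 81.2% [78.6 to 83.6] of 964 ZsG-positive classical monocytes of the CD45 sort, and in 87.5% and 80.7% of those of the T cell sort. *Cxcl9* was seen in 70.0% [67.5 to 72.5] of CD45-sorted macrophages against 34.3% [27.3 to 41.8] of the ZsG-positive macrophages of the T cell sort. *Cxcl10* was thus seen in most classical monocytes at this depth, and the share of macrophages with *Cxcl9* differed between the sorts. The part of the Cell Ranger versions in that difference was not tested. *Cxcl16* was seen in 61.8% [49.98 to 72.8] of mature DC of the CD45 sort and 48.1% [34.0 to 62.4] of those of the T cell sort, and in 38.0% [35.4 to 40.7] of macrophages of the CD45 sort. As a background for the ZsG-negative CD45 gate, *Cxcl9* was seen in 0.459% [0.22 to 0.842] of 2180 Ly49 NK cells and *Cxcl16* in 0.138% [0.0284 to 0.402]. This background does not stand for the ZsG-positive gate. There, 102 Ly49 NK cells held *Cxcl9* at 112.5 CPM and *Cxcl16* at 18.31 CPM, against 2.115 and 0.6436 CPM in the ZsG-negative gate. Without thinning the shares were 88.0% for *Cxcl9* in macrophages and 94.7% for *Cxcl16* in mature DC of the CD45 sort.

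In single macrophages, *Cxcl10* was seen more often beside *Cxcl9* than without it. At 2000 UMIs, *Cxcl10* was seen in 61.9% [58.7 to 65.1] of the macrophages of the CD45 sort with *Cxcl9* and in 48.1% [43.1 to 53.2] of those without it. In ZsG-positive macrophages of the T cell sort the shares were 63.3% [49.9 to 75.4] and 36.5% [27.7 to 46.0]. *Cxcl16* was likewise seen in 41.8% [38.6 to 45.0] of CD45-sorted macrophages with *Cxcl9* and 29.4% [24.9 to 34.1] of those without. Mature DC showed the opposite order for *Cxcl16*, at 54.2% [39.2 to 68.6] with *Cxcl9* and 75.0% [55.1 to 89.3] without in the CD45 sort, and 28.0% [12.1 to 49.4] with and 66.7% [46.0 to 83.5] without in the T cell sort. The intervals of the mature DC overlapped in both sorts, and cells of 1 library are not replicates. Without thinning, nearly all mature DC of the CD45 sort had *Cxcl16*, and the opposite order was not seen there.

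In the ZsG-negative CD45 gate few cells carried most of the *Cxcl9* and *Cxcl10* transcripts. Classical monocytes were 1.38% of the cells of this gate and held 35.1% of the *Cxcl10* UMIs and 40.6% of the *Cxcl9* UMIs. Non-classical monocytes, 3.58% of the cells, held a further 32.0% of the *Cxcl10* UMIs, whereas Ly49 NK cells, 46.5% of the cells, held 4.87%. Mature DC, 0.255% of the cells of this gate and fewer than the 20 cells required for a level, held 33.2% of its 208 *Cxcl16* UMIs. In the ZsG-positive CD45 gate the weight moved to macrophages, which were 32.0% of the cells and held 45.7% of *Cxcl9* and 43.6% of *Cxcl16* UMIs, while classical monocytes held 38.0% of *Cxcl10*. The ligands were found in many cells there, *Cxcl9* in 3235 and *Cxcl10* in 3281 of 4124 cells. Mature DC were 2.82% of the ZsG-positive cells of the T cell sort and held 22.6% of their *Cxcl16* UMIs, beside 49.5% in macrophages.

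**Figure D3:**
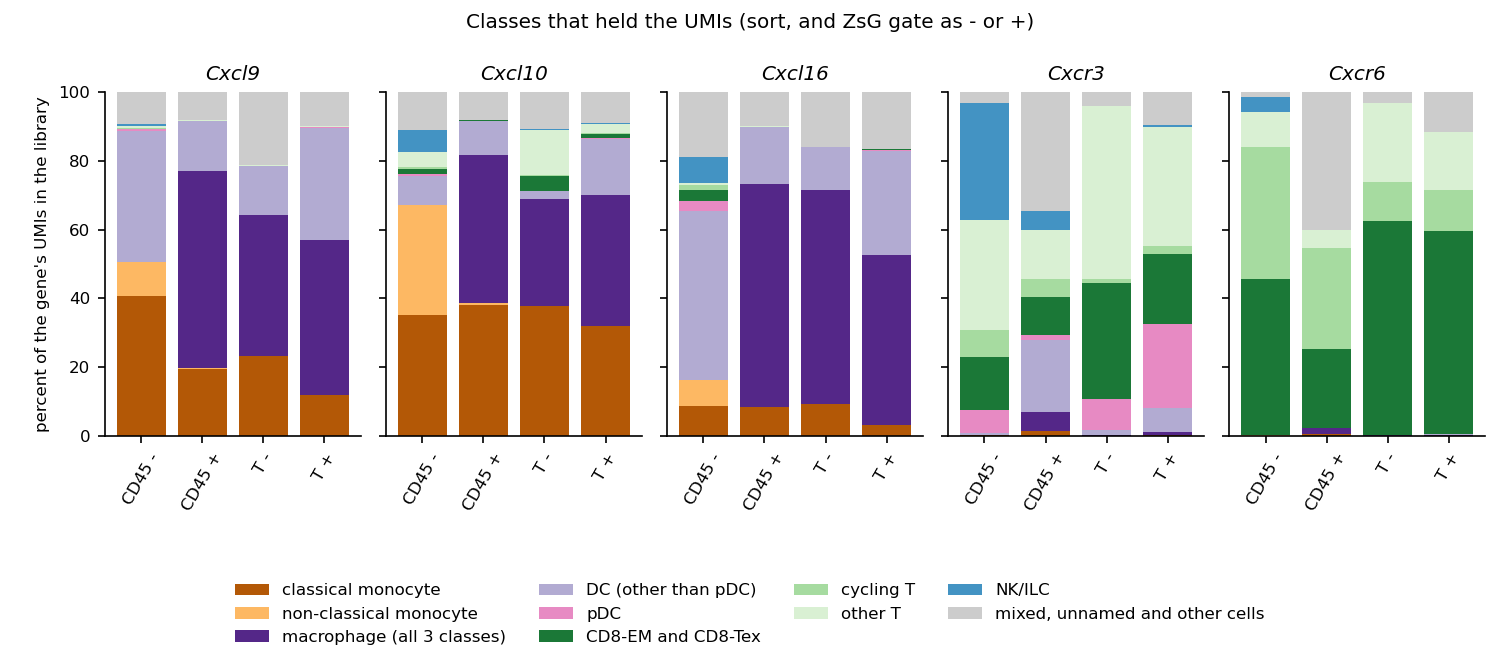
Share of each gene's UMIs (y axis, percent) held by groups of classes in each of the 4 libraries (x axis, sort and ZsG gate as - or +). Monocytes, macrophages and dendritic cells fill most of each ligand bar, while T cells fill most of the *Cxcr6* bars. *Cxcr3* is divided mainly among T cells, NK cells and pDC in the ZsG-negative CD45 gate and between T cells and pDC in the T cell sort. In the ZsG-positive CD45 gate 34.5% of it lies in mixed and other cells and 21.0% in DC other than pDC.

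*Cxcr3* was highest in Th1-like CD4 T cells, the helper cells named by *Cd4*, *Cd40lg* and *Tbx21*. It stood at 217 CPM [157 to 294] in 44 ZsG-negative cells of the CD45 sort and at 268 CPM [216 to 328] and 274 CPM [216 to 342] in 79 ZsG-negative and 63 ZsG-positive cells of the T cell sort. CD8-EM, the effector memory CD8 cells named by *Gzmk*, *Gzma* and *Eomes*, followed with 135 [117 to 154] and 159 [112 to 218] CPM in the CD45 sort and 198 [171 to 228] and 188 [160 to 220] CPM in the T cell sort. Th1-like CD4 cells thus stood above CD8-EM in the ZsG-negative CD45 gate, while the intervals of these classes overlapped in both gates of the T cell sort. Regulatory T cells (Treg, named by *Foxp3* and *Il2ra*) had 107 [90.1 to 125] and 76.8 [51.1 to 111] CPM in the CD45 sort and 126 [94.1 to 164] and 127 [110 to 147] CPM in the T cell sort. Ly49 T cells, which carry Klra receptors shared with NK cells, had 124, 104 and 79.6 CPM, and naive-like T cells 80.9 to 96.9 CPM in all 4 libraries. CD8-Tex, the exhausted CD8 cells named by *Pdcd1*, *Havcr2* and *Tox*, stood far lower, at 19.3 CPM [15.4 to 23.9] in the CD45 sort and 32.3 [20.5 to 48.5] and 28.1 [20.7 to 37.3] CPM in the T cell sort.

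Outside T cells, *Cxcr3* was found in pDC, ILC1-like cells and NK cells. pDC had 73.3 CPM [61.3 to 87.0] in 204 ZsG-negative and 36.6 CPM [11.9 to 85.5] in 21 ZsG-positive cells of the CD45 sort, and 69.5 [52.5 to 90.3] and 64.0 [56.2 to 72.5] CPM in the T cell sort. Ly49 NK cells had 48.5 CPM [44.4 to 52.8] and 49.7 CPM [29.9 to 77.6] in the CD45 sort and ILC1-like cells 74.7 CPM [55.8 to 98.0]. pDC thus stood close to ILC1-like cells and above Ly49 NK cells in the ZsG-negative CD45 gate. DC1 had 16.8 [6.18 to 36.6] and 44.4 [34.5 to 56.2] CPM, whereas macrophages of the CD45 sort, a class not known to make CXCR3, had 0.602 CPM [0.289 to 1.11]. The share of pDC with *Cxcr3* at 2000 UMIs, 13.2% [7.004 to 21.9] and 12.3% [9.44 to 15.6] in the T cell sort, stood above the 1.71% [0.355 to 4.93] of ZsG-positive macrophages there, which gives the background. pDC were 25.4% of the ZsG-positive cells of the T cell sort and held 24.6% of its *Cxcr3* UMIs, and Ly49 NK cells held 27.0% of those of the ZsG-negative CD45 gate. In the ZsG-positive CD45 gate the mixed T and macrophage cells held 34.5% and DC1 19.1% of the *Cxcr3* UMIs.

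*Cxcr6* was a gene of T cells and ILC1-like cells and was nearly missing from pDC and Ly49 NK cells. CD8-EM had 311 [284 to 339] and 278 [215 to 355] CPM in the CD45 sort and 333 [298 to 372] and 312 [275 to 352] CPM in the T cell sort. CD8-Tex had 307 CPM [291 to 324] in the CD45 sort and 242 [207 to 281] and 282 [257 to 308] CPM in the T cell sort, and Th1-like CD4 cells 300, 282 and 277 CPM. The intervals of these 3 classes overlapped in the CD45 sort, and CD8-EM stood above CD8-Tex in the ZsG-negative gate of the T cell sort. Cycling T cells followed at 188, 144 and 145 CPM, ILC1-like cells at 97.7 CPM [75.9 to 124], and Treg at 79.4 [65.3 to 95.6], 52.1, 49.8 and 52.6 CPM. The highest level of all, 1065 CPM [878 to 1281], came from 21 T cells of the ZsG-negative CD45 gate led by the gamma-delta receptor genes *Trdc* and *Tcrg-C1* together with *Il17a*, and all 21 had a *Cxcr6* UMI. In pDC no *Cxcr6* UMI was counted in 3 libraries, which bounds the level below 2.06 CPM in 204 ZsG-negative cells of the CD45 sort, and 478 ZsG-positive cells of the T cell sort had 0.522 CPM. Ly49 NK cells had 4.78 CPM [3.57 to 6.27] in the ZsG-negative CD45 gate.

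**Figure D4:**
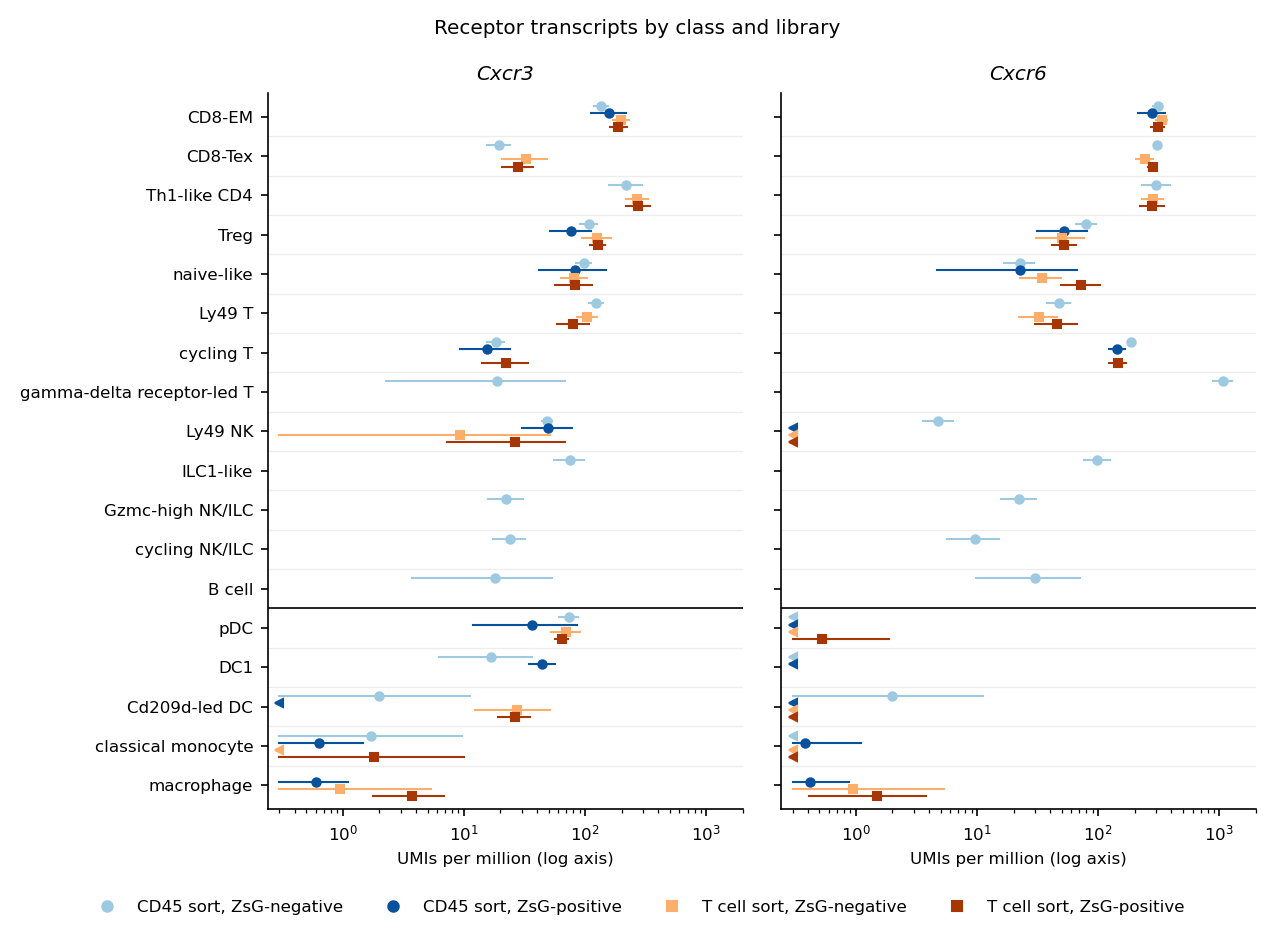
Level of *Cxcr3* and *Cxcr6* (x axis, CPM on a log axis) in each class (y axis), 1 point per library with 95% Poisson intervals for counting error, and triangles at the left edge for no UMI. CD8-Tex lie near CD8-EM for *Cxcr6* but far below them for *Cxcr3*, at 28.1 against 188 CPM in the ZsG-positive gate of the T cell sort, and pDC have *Cxcr3* without *Cxcr6*.

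The log2 ratio of *Cxcr6* to *Cxcr3* UMIs ordered the lymphoid classes. It was 3.99 [3.67 to 4.32] in CD8-Tex of the CD45 sort and 2.90 [2.27 to 3.60] and 3.32 [2.90 to 3.78] in those of the T cell sort. Cycling T cells had 3.36, 3.23 and 2.71, CD8-EM 1.21 [0.97 to 1.44], 0.81, 0.75 and 0.73 [0.44 to 1.03], and Th1-like CD4 cells 0.47, 0.07 and 0.02. Exhausted and cycling cells thus leaned to *Cxcr6*, and Th1-like cells had about as many UMIs of either gene. Treg leaned to *Cxcr3*, with -0.42 [-0.79 to -0.06] and -0.56 in the CD45 sort and -1.34 and -1.28 in the T cell sort, as did Ly49 T cells (-1.40, -1.69 and -0.79) and Ly49 NK cells (-3.34 [-3.78 to -2.93]). With classes drawn from UMIs of marker genes in each cell in place of clusters, the ratio of ZsG-positive CD8-EM of the T cell sort went from 0.73 to -0.04.

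Clusters within a class also differed. In the T cell sort, the CD8-Tex cluster led by *Pdcd1*, *Havcr2* and *Tox* held *Cxcr6* at 401 and 531 CPM and *Cxcr3* at 56.8 and 53.3 CPM in the ZsG-negative and ZsG-positive gates. The CD8-Tex cluster led by *Ifng*, *Xcl1* and *Ccl3* held *Cxcr6* at 101 and 118 CPM and *Cxcr3* at 10.6 and 11.6 CPM. CD8-EM led by *Gzma*, *Cx3cr1* and *Klrg1*, genes of circulating effector cells, held 98.3 CPM of *Cxcr6* and 36.9 CPM of *Cxcr3* in 34 ZsG-negative cells. The *Gzmk*-led CD8-EM held 417 and 353 CPM of *Cxcr6* and 247 and 218 CPM of *Cxcr3*. Among Treg, the main cluster held 148 and 222 CPM of *Cxcr3* and the cycling cluster (50 ZsG-positive cells) 68.8 CPM. Naive-like T cells held *Cxcr3* at 183 and 153 CPM in a cluster of 25 ZsG-negative and 24 ZsG-positive cells. A larger naive-like cluster (96 and 43 cells) held 55.2 and 41.8 CPM. Both receptors were therefore lower together in the *Cx3cr1*-led and the *Ifng*-led CD8 clusters.

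In single CD8-EM cells at 2000 UMIs, *Cxcr6* was seen in 51.1% [36.1 to 65.9] of cells with *Cxcr3* and 37.2% [30.1 to 44.6] of cells without it in the ZsG-negative CD45 gate. The shares were 55.6% [41.4 to 69.1] and 37.3% [28.6 to 46.7] in the ZsG-negative and 45.5% [30.4 to 61.2] and 43.5% [34.0 to 53.4] in the ZsG-positive gate of the T cell sort. The intervals overlapped in all 3 libraries. *Cxcr3* itself was seen in 39.0% [28.1 to 50.8] and 49.2% [36.1 to 62.3] of Th1-like CD4 cells of the T cell sort.

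Comparing the gates asks whether cells sorted as ZsG-positive carried other levels of these genes than cells of the same class sorted as ZsG-negative. For lymphoid classes of the CD45 sort the ZsG-negative gate also held cells with ZsG, so it does not stand for cells without tumor material. Ratios are log2 of ZsG-positive over ZsG-negative CPM within a class, for members with at least 20 UMIs over both gates and UMIs in each of them, and each count of members past 2-fold is set beside the share of all genes past 2-fold in that class. The rules differ in that the share of all genes also counts genes with UMIs in only 1 gate, as past 2-fold, whereas such members are left out. Among classical monocytes of the CD45 sort, 2 of 3 members were past 2-fold, where 20.4% of genes were. *Cxcl10* was lower in the ZsG-positive gate at -1.42 [-1.46 to -1.38], *Cxcl16* higher at 1.99 [1.32 to 2.75], and *Cxcl9* stood at -0.32 [-0.40 to -0.24]. *C1qa* moved with the gate, from 13.7 to 508 CPM, and its part in the *Cxcl16* value was not tested. The *Rsad2*-led cluster, with *C1qa* at 1315 CPM, held 381 of the 973 *Cxcl16* UMIs of the ZsG-positive monocytes. Of the 65 ZsG-negative monocytes 60 belonged to the *Chil3*- and *Ifitm6*-led cluster, and within that cluster *Cxcl10* was 12270 and 7833 CPM, a log2 ratio of -0.65 [-0.69 to -0.61], *Cxcl9* 0.41 [0.33 to 0.49] and *Cxcl16* 1.29 [0.58 to 2.08]. The *Cxcl9* difference therefore changed sign within the cluster. The *Cxcl10* difference kept its direction there but was within 2-fold, as it was when cells were gated one by one on markers. In non-classical monocytes *Cxcl10* had the same direction at -0.95 [-1.09 to -0.81] and *Cxcl16* stood at 1.62 [0.10 to 2.98], so 1 of 3 members was past 2-fold beside 14.2% of genes, with *C1qa* at 0.739 and 51.9 CPM.

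DC1 and DC2 of the CD45 sort shared the *Cxcl16* direction. In DC2, 2 of 3 members were past 2-fold beside 27.3% of genes, with *Cxcl10* at -1.16 [-1.26 to -1.05], *Cxcl16* at 1.27 [0.68 to 1.94] and *Cxcl9* at -0.63 [-0.73 to -0.52]. In DC1, 2 of 4 members were past 2-fold beside 15.8% of genes, with *Cxcl16* at 2.90 [1.75 to 4.36], *Cxcr3* at 1.40 [0.20 to 2.89], *Cxcl10* at 0.99 [0.67 to 1.32] and *Cxcl9* at -0.61 [-0.75 to -0.46]. *Cxcl9* was thus lower and *Cxcl16* higher in ZsG-positive cells of both classes, while *Cxcl10* went in opposite directions. *C1qa* stood at 0 in the ZsG-negative cells of both classes and at 861 CPM in ZsG-positive DC2 and 463 CPM in ZsG-positive DC1, and the part of macrophage transcripts in these ratios was not tested. In the *Cd209d*-led class 1 of 2 members was past 2-fold beside 15% of genes, *Cxcl10* at -4.23 [-4.90 to -3.63], and *Lyz2* differed by -3.93 in the same direction, while *Cxcl16* had 4 and 2 UMIs in its gates. In pDC 2 of 3 were past 2-fold beside 19.7% of genes, *Cxcl9* at 2.77 [1.68 to 3.79] and *Cxcr3* at -1.0 [-2.65 to 0.26], the latter from 5 UMIs in 21 ZsG-positive cells, and *C1qa* was 0.560 and 169 CPM. The part of C1q-bearing RNA in these values was not tested.

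In lymphoid classes of the CD45 sort the largest gate differences were those of *Cxcl9*. CD8-EM had 2 *Cxcl9* UMIs in 230 ZsG-negative and 40 in 48 ZsG-positive cells, which gives 7.12 [5.17 to 10.22], and *Cxcl10* stood at 1.15 [0.64 to 1.64], so 2 of 4 members were past 2-fold beside 14.0% of genes. *C1qa* went from 5.54 to 253 CPM in the same cells. Ly49 NK cells showed the same for *Cxcl9*, 5.73 [4.97 to 6.53] with *C1qa* at 5.65, 1 of 3 members past 2-fold beside 17.4% of genes, while *Cxcr3* stood at 0.04 [-0.71 to 0.69]. *Cxcr6* had 52 UMIs in the ZsG-negative and none in the ZsG-positive Ly49 NK cells and so no ratio. Treg had *Cxcl10* at -1.73 [-2.47 to -1.08], 1 of 3 members past 2-fold beside 10.1% of genes, and no *Cxcl9* UMI in 70 ZsG-negative cells against 20 UMIs in 23 ZsG-positive cells, so that *Cxcl9* had no ratio. *C1qa* was 2.86 and 41.2 CPM in these Treg, and a single cell held 94 of the 255 ZsG-negative *Cxcl10* UMIs. The receptors lay closer together, with *Cxcr3* at 0.23 [-0.31 to 0.74] in CD8-EM and -0.47 [-1.11 to 0.12] in Treg and *Cxcr6* at -0.16 [-0.55 to 0.22] and -0.61 [-1.39 to 0.10]. Each of these 4 intervals includes 0. Cycling T cells differed from them, with *Cxcr6* at 188 and 144 CPM, -0.38 [-0.62 to -0.16].

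In the T cell sort the receptor levels of the 2 gates lay close together in CD8-EM, Treg, Th1-like CD4 cells and CD8-Tex. Directions here rest on the larger library being the ZsG-positive one, and the opposite assignment would turn every sign. As assigned, Treg were 141 of 780 ZsG-positive and 41 of 659 ZsG-negative cells past the CD3 limit. CD8-Tex were 134 and 59 cells and naive-like T cells 67 and 121. The paper reports Treg and CD8-Tex as enriched and naive-like T cells as underrepresented among ZsG-positive T cells. By flow cytometry it found more ZsG in Treg than in conventional CD4 T cells. It also describes pDC as appearing ZsG-negative. As assigned, the pDC of the T cell sort were 478 ZsG-positive and 92 ZsG-negative cells, so this class goes the other way. *Cxcr3* stood at -0.08 [-0.39 to 0.24] in CD8-EM, 0.02 [-0.43 to 0.49] in Treg, 0.03 [-0.42 to 0.48] in Th1-like CD4 cells and -0.20 [-0.95 to 0.58] in CD8-Tex. *Cxcr6* stood at -0.10 [-0.34 to 0.15], 0.08 [-0.63 to 0.85], -0.02 [-0.47 to 0.42] and 0.22 [-0.03 to 0.48] in the same order. All of these class intervals lie within 2-fold of equal levels. Within the main Treg cluster *Cxcr3* was 148 and 222 CPM, 0.59 [-0.03 to 1.25], an interval that includes 0 and reaches past 2-fold. The cycling Treg cluster, at 68.8 CPM in 50 ZsG-positive cells, lowered the ZsG-positive class value. Within the *Pdcd1*-led CD8-Tex cluster *Cxcr6* was higher in ZsG-positive cells at 0.41 [0.12 to 0.70]. In a CD8-EM cluster led by *Ifit1* and *Ifit3* it was lower in ZsG-positive cells, at 256 and 126 CPM, -1.02 [-2.03 to -0.10], from 45 and 13 UMIs. In naive-like T cells *Cxcr6* was 34.3 and 72.5 CPM, a ratio of 1.08 [0.29 to 1.87], and 1 of 3 members was past 2-fold where 6.30% of genes were. This class joined a cluster high in *Cxcr6* (25 ZsG-negative and 24 ZsG-positive cells, 122 and 160 CPM) and a cluster low in it (96 and 43 cells, 12.3 and 22.8 CPM). Within them the ratios were 0.38 [-0.53 to 1.32] and 0.89 [-0.91 to 2.61], both with intervals that include 0.

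*Cxcl10* was past 2-fold between the gates in CD8-EM and Treg of the T cell sort. In CD8-EM it was 172 CPM [147 to 200] in the ZsG-negative and 60.6 CPM [45.0 to 79.9] in the ZsG-positive gate, -1.50 [-1.99 to -1.04], 1 of 3 members past 2-fold beside 4.0% of genes. In Treg it was 306 CPM [255 to 363] and 80.9 CPM [67.1 to 96.7], -1.92 [-2.29 to -1.55], 1 of 3 members past 2-fold beside 8.32% of genes. Neither held when classes were drawn from UMIs of marker genes in each cell, which gave 0.40 in CD8-EM and 0.03 in Treg. A single cell held 63 of the 129 ZsG-negative Treg UMIs, and without the cell with most *Cxcl10* in each gate the ratio was -1.32 [-1.79 to -0.84] in Treg and -1.51 in CD8-EM. The CD8-EM difference lay in the cluster led by *Ifit1* and *Ifit3*, with 785 CPM in 37 ZsG-negative and 292 CPM in 21 ZsG-positive cells, while the *Gzmk*-led cluster had 34.1 and 27.8 CPM, -0.30 [-1.29 to 0.68]. No member was past 2-fold in CD8-Tex (0 of 3, beside 5.07% of genes), in Ly49 T cells (0 of 3, beside 4.51%), in Th1-like CD4 cells (0 of 3, beside 6.79%) or in macrophages (0 of 3, beside 5.23%). Classical monocytes of this sort had *Cxcl10* at -0.03 [-0.11 to 0.06] and *Cxcl16* at -1.0 [-1.66 to -0.34], 1 of 3 members past 2-fold beside 9.11% of genes.

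Lymphoid cells also held ligand UMIs, together with some *Lyz2*. Each level was therefore set beside a carried level, that is, the ligand that this *Lyz2* would bring along in the ratio found in the myeloid cells of the same library. In ZsG-negative Ly49 NK cells of the CD45 sort, *Cxcl10* was 85.1 CPM [79.7 to 90.8], where the *Lyz2* in the same cells would bring 10.2 CPM. In Treg it was 182 CPM against 9.35 CPM, and in Ly49 T cells 96.9 CPM against 9.93 CPM, whereas *Cxcl9* was 2.12 CPM in Ly49 NK cells against 2.37 CPM carried, and 0 in Treg. By *Lyz2*, measured *Cxcl10* thus exceeded the carried value in these classes and *Cxcl9* did not. With C1q genes in place of *Lyz2* the carried *Cxcl10* of Ly49 NK cells came to 729 CPM, since the myeloid cells of this gate had little C1q, and the order was the reverse. In the ZsG-negative gate of the T cell sort, Ly49 T cells had 360 CPM [323 to 399] of *Cxcl10* against 3.36 CPM carried and Treg 306 CPM with no *Lyz2* UMI. With C1q genes the carried values there were 4.48 and 2.33 CPM, and pDC had the 4.97 CPM given above. In the ZsG-positive CD45 gate the picture differed, as Ly49 NK cells had 113 CPM [81.4 to 152] of *Cxcl9* and 126 CPM [92.6 to 167] of *Cxcl10* against 85.2 and 89.5 CPM carried with *Lyz2* and 118 and 124 CPM with C1q genes. Which cells made these transcripts was not tested.

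**Figure D5:**
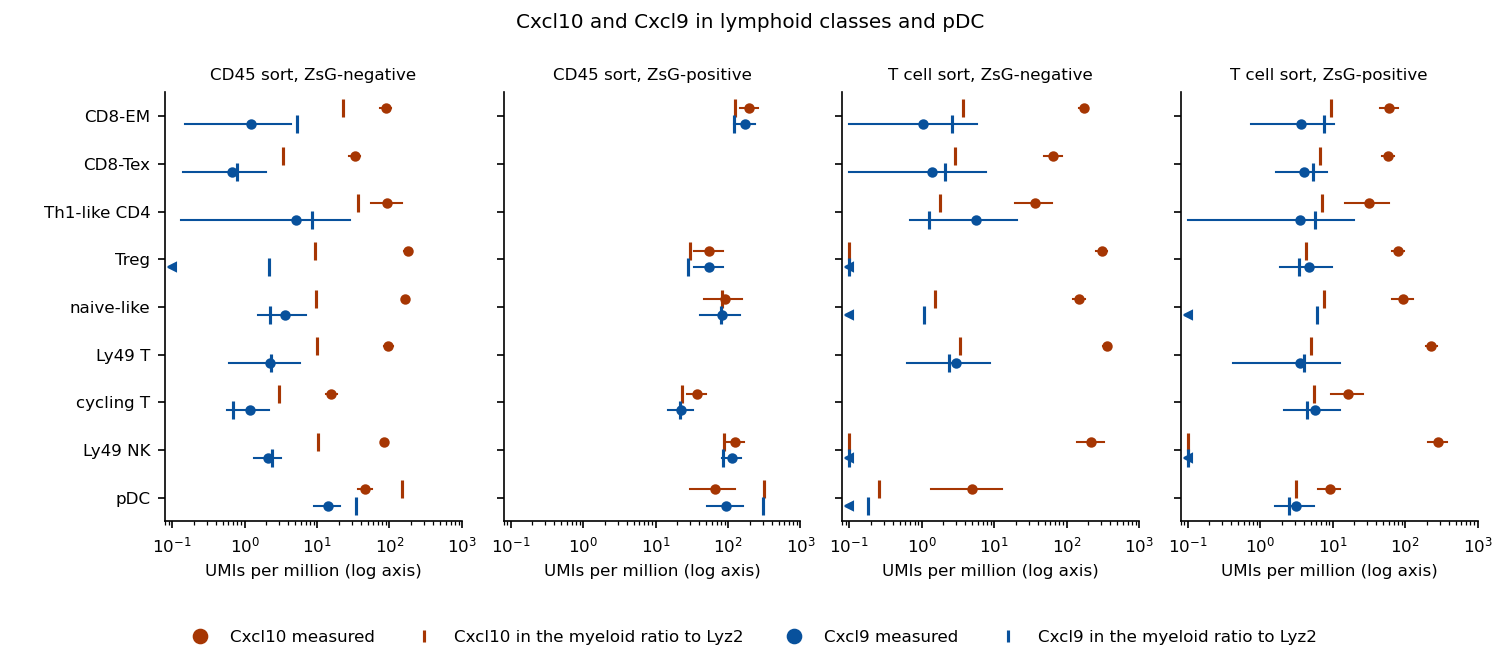
Measured level of *Cxcl10* and *Cxcl9* (points, with 95% Poisson intervals, CPM on a log axis) in lymphoid classes and pDC (y axis) of each library, beside the level that myeloid RNA would bring with the class's *Lyz2* (vertical marks, drawn at the left edge for no *Lyz2*, and triangles for no UMI). Measured *Cxcl10* lies to the right of its mark in the ZsG-negative lymphoid classes, at 85.1 against 10.2 CPM in Ly49 NK cells of the CD45 sort, where a mark drawn from C1q genes would stand at 729 CPM.

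Some T cell clusters led by interferon-stimulated genes were high in *Cxcl10*. In the ZsG-negative CD45 gate a naive-like cluster led by *Ifit1* and *Ifit3* (46 cells) held 917 CPM, against 68.6 and 48.3 CPM in the other 2 naive-like clusters. In the T cell sort the *Ifit1*- and *Ifit3*-led CD8-EM cluster held the 785 and 292 CPM given above. Other T cells were high without such leading genes, with 683 CPM in a Treg cluster and the 360 CPM of Ly49 T cells in the ZsG-negative gate of that sort. That Treg cluster had 29 cells and 120 *Cxcl10* UMIs in this gate. The single Treg cell described above, which held a large part of the Treg UMIs of this gate, was among them. Among Ly49 NK clusters of the ZsG-negative CD45 gate the level ran from 16.5 to 153 CPM apart from 1 cluster at 449 CPM (148 cells). At 2000 UMIs, *Cxcl10* was seen in 19.9% [13.9 to 27.0] of 156 ZsG-negative Ly49 T cells and 20% [9.05 to 35.7] of 40 ZsG-negative Treg of the T cell sort, against 1.10% of its ZsG-negative pDC.

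The genes of the interferon-gamma route, 12 measured from ligand to targets, were highest in a myeloid class for 7 and in a lymphoid class for 5 in each sort. For scale, among all genes that reached 20 CPM in a class, 47.5% of 9317 genes in the CD45 sort and 46.6% of 8634 genes in the T cell sort were highest in a myeloid class, and the short lists here were chosen for their roles. *Ifng* was highest in CD8-Tex, at 1214 CPM in the ZsG-negative CD45 gate and at 3414 and 7726 CPM in the ZsG-negative and ZsG-positive gates of the T cell sort. Receptor and kinase genes *Ifngr1* and *Jak1* were highest in Ly49 NK cells, *Ifngr2* in monocytes (161 and 160 CPM) and *Jak2* in dendritic cells, the *Cd209d*-led class (216 CPM) and mature DC (278 CPM). Of the target genes, *Gbp2* stood at 1823 and 2404 CPM and *Gbp5* at 523 and 369 CPM in classical monocytes of the CD45 and the T cell sort, while *Gbp4* was highest in gamma-delta-led T cells (349 CPM) and CD8-EM (202 CPM). *Irf1*, which acts on both CXCR3 ligand genes, was highest in non-classical monocytes of the CD45 sort (1526 CPM) and in classical monocytes of the T cell sort (748 CPM), and *Socs1*, a brake on the route, in classical monocytes (499 and 235 CPM). *Irf8* was highest in pDC (3490 and 3395 CPM), a class with little of either ligand. Of 7 genes of inflammatory inputs, 7 in the CD45 sort and 6 in the T cell sort were highest in a myeloid class. *Tnf* led in classical monocytes (914 and 535 CPM) and *Il12b*, which drives interferon-gamma in T cells, in mature DC (372 and 1402 CPM).

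Of 5 partner genes of the CXCR6 axis, 3 were highest in a myeloid class in the CD45 sort and 4 in the T cell sort. *Il15ra*, which presents interleukin-15 to T cells, was highest in mature DC (58.7 and 124 CPM), the class highest in *Cxcl16*, and *Il15* in classical monocytes (75.4 and 107 CPM). *Adam17* was highest in hypoxic macrophages (112 CPM) and macrophages (103 CPM), and *Adam10* reached at most 62.1 and 64.2 CPM and *Il7* at most 2.74 CPM. Partner genes of the CXCR3 axis were highest in different classes. *Dpp4*, a protease that trims CXCR3 ligands, was highest in DC1 (112 CPM) and mature DC (107 CPM) and *Pf4* in hypoxic macrophages and macrophages (544 and 839 CPM), whereas *Ccl5* was highest in CD8-EM (10700 and 17250 CPM). Among 9 transcription factors tied to the receptors, 6 in the CD45 sort and 7 in the T cell sort were highest in a lymphoid class. Part of this count was set by the naming of classes. *Tcf7* was a marker of naive-like T cells, *Eomes* of CD8-EM and Ly49 NK cells and *Tbx21* of Th1-like CD4 cells. *Tbx21*, which activates *Cxcr3*, was highest in Ly49 NK cells (81.1 and 79.7 CPM), a class below Th1-like CD4 cells and CD8-EM in *Cxcr3*.

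A list of 16 other chemokines was drawn up as those of myeloid cells, so its count is no finding. Of these, 12 in the CD45 sort and 11 in the T cell sort were highest in a myeloid class and *Cxcl12* had no UMI in any class. *Ccl2* (3604 and 6422 CPM), *Ccl7* and *Ccl12* were highest in macrophages, *Ccl17* (725 CPM) and *Ccl22* (798 CPM) in mature DC of the CD45 sort, and *Ccl3* (1371 and 4879 CPM) in CD8-Tex. Of 10 other receptors of cell migration, *S1pr1* among them, 5 and 6 were highest in a myeloid class. These included *Ccr7* in mature DC (1803 and 2864 CPM), *Ccr2* in monocytes (1085 and 1037 CPM) and *Xcr1* in DC1 of the CD45 sort (392 CPM). *Ccr7* and *Ccl22* were among the markers that named mature DC, *Xcr1* among those of DC1 and *S1pr1* among those of naive-like T cells. The places of these genes were thus set in part by the naming, and the count of receptors is no finding either.

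Over 62 profiles (classes by library, at least 20 cells each) and 9923 genes, the genes most like each member were found by Pearson's r of log2(CPM + 1), as a description of profiles that share libraries. *Cxcl9* was most like *Il1b* (0.936), *Fcgr1* (0.935) and *Pid1* (0.924). *Cxcl10* was most like *Gbp5* (0.92), *Ccrl2* (0.886) and *Dusp1* (0.879), and *Cxcl16* like *Gm34084* (0.918), *Fcgr4* (0.896) and *Bcl2a1a* (0.896). *Cxcl9* and its neighbor *Cxcl10* correlated at 0.731, below *Cxcl9* and *Cxcl16* at 0.895, and *Cxcl10* and *Cxcl16* at 0.674. *Cxcr6* was most like the T cell genes *Bcl11b* (0.943), *Cd3e* (0.938) and *Cd3g* (0.937), and *Cxcr3* like *Jakmip1* (0.86), *Sept1* (0.843) and *Cd28* (0.841). The receptors correlated with each other at 0.646.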

How the data were processed

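Single-cell 3′ RNA libraries (10x Genomics, v3.1 chemistry) were measured in 4 samples, 1 per ZsG gate and sort. Reads were mapped by the authors to mm10 with Cell Ranger (6.1.2 in the submitters' processing notes and in the header of the T cell matrix, 7.0.0 in the header of the CD45 matrix), aggregated the gates of a sort and deposited raw UMI counts per gene and cell. The sources used here do not say whether depth was evened between the gates. Barcodes numbered 5437 (ZsG-negative) and 5168 (ZsG-positive) in the CD45 sort, with 47537541 and 56510578 UMIs, and 1136 and 2396 in the T cell sort, with 10030971 and 22100220 UMIs. No value column was without a sample. For the T cell sort a label calls the larger library minus while the name of its table calls it ZsG+. The table's name and its barcode numbers were followed, and the other reading would turn the sign of each gate ratio of that sort.

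Cells with 1000 to 6000 genes and under 10% mitochondrial UMIs (CD45 sort), or with 50 to 6000 genes and under 15% (T cell sort), and genes found in 3 or more cells entered, as in the study's methods, and T cell classes of the T cell sort needed CD3 genes at 0.055% of UMIs. Cells were clustered with scanpy 1.11.5 and igraph 0.11.9 (Python 3.11.15) on 2000 variable genes without the 5 members, 20 principal components, 20 neighbors and a resolution of 1.0. Clusters were named from fixed marker lists, and the naming rule was revised several times after clusters had been seen. No doublet caller was run and no doublets were removed, and mixed T and macrophage clusters were set apart. Counts were summed per class and library, for classes of at least 20 cells, and given as CPM of all UMIs of the class. With 1 library per group no test was possible. Intervals are 95% exact intervals (scipy 1.17.1), gate ratios of members and of all genes needed at least 20 UMIs over both gates, and shares were taken after thinning each cell to 2000 UMIs, leaving out shallower cells. The ratio step was tested on simulated counts. TMM factors for the alternative came from edgeR 4.0.16 (R 4.3.3).

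The text names the 5 members, for each the 3 genes most alike by Pearson's r of log2(CPM + 1) among genes reaching 20 CPM, and genes of lists on the interferon-gamma route, inflammatory inputs, partners of both axes, transcription factors, and other chemokines and receptors. Members and lists were chosen with earlier results of these data known. Part of the list of CXCR3 partners is not reported here. Alternatives were another resolution, cells gated one by one on markers, a 5% mitochondrial limit, stricter cells, TMM scaling, totals without mitochondrial and ribosomal genes, means over cells, other UMI minimums, and thinning to 1000 UMIs or none.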

Additional observations from a re-analysis of the deposited data

Results flagged for a closer look

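Of 15 pairs of a class and a gene that could be compared between the sorts, 6 had gate ratios of opposite sign, and in 2 of them the counting intervals lay clear of 0 in opposite directions. The difference between the sorts was not tested. *Cxcl10* in CD8-EM had a log2 ratio of ZsG-positive over ZsG-negative CPM of 1.15 in the CD45 sort and -1.50 in the T cell sort. *C1qa* was 5.54 and 253 CPM in the gates of the former and 4.19 and 8.49 CPM in those of the latter.

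*Cxcl16* in classical monocytes had a log2 ratio of 1.99 in the CD45 sort and -1.0 in the T cell sort. *C1qa* was 13.7 and 508 CPM in the former and 0 and 32.5 CPM in the latter. Both oppositions, the 2 with intervals clear of 0, rest on the assignment of the 2 libraries of the T cell sort to their gates, and the other reading of the labels would remove them. That reading would instead set *Cxcl10* in Treg, at -1.73 in the CD45 sort and -1.92 in the T cell sort as reported, in opposite directions. It would do the same for *Cxcl9* in classical monocytes (-0.32 and -0.49) and *Cxcl10* in naive-like T cells (-0.86 and -0.66). The intervals of all these values lie clear of 0. The other reading would also reverse the class sizes of Treg, CD8-Tex and naive-like T cells, which as assigned go the way the paper reports. The paper describes pDC as appearing ZsG-negative, and the assigned sizes of that class go the other way. In the T cell sort 478 ZsG-positive and 92 ZsG-negative pDC were kept, against 21 and 204 in the CD45 sort. The 24 melanoma cells described below, of a line that carries the ZsG gene, lay in the library taken as ZsG-negative. Which reading is right was not tested.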

How the results depend on the processing

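Of 148 alternative values for 30 results, 88 stayed within the counting interval of the reported value or, for counts of genes, within 1.5 times, 57 moved further and 3 turned the direction of a value whose interval was clear of 0. Of 111 log2 values 100 kept their sign, and the other changes of sign were in values whose interval included 0. No paired analysis was possible because each gate and sort has 1 library. No value could be had for *Cxcl10* between the gates of classical monocytes of the T cell sort at the resolution of 0.5. The causes of these changes were not tested, and counting depth limits values from few UMIs, such as *Cxcr3* in ZsG-positive pDC of the CD45 sort.

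Gating cells one by one on markers turned the direction of *Cxcr6* over *Cxcr3* in ZsG-positive CD8-EM of the T cell sort (from 0.73 to -0.04) and of the *Cxcl10* gate ratio in Treg (to 0.03) and CD8-EM (to 0.40) of that sort. It also gave a log2 *Cxcl10* over *Cxcl9* of 0.64 in ZsG-positive classical monocytes, 3.44 in ZsG-negative non-classical monocytes, -0.18 in macrophages and -1.47 in ZsG-positive DC1 of the CD45 sort. The other values under it were 1.10 for *Cxcl16* in mature DC over macrophages, 2.66 for *Cxcr6* over *Cxcr3* in CD8-Tex, gate ratios of *Cxcl10* in classical monocytes of -0.95 (CD45) and -0.17 (T cell sort), and -0.23 for *Cxcr6* in CD8-Tex. At the resolution of 0.5, *Cxcl10* over *Cxcl9* was 0.36 in classical monocytes, -0.26 in macrophages and -0.57 in DC1, and the *Cxcl10* gate ratio -1.56 in classical monocytes (CD45), -2.30 in Treg and -0.52 in CD8-EM (T cell sort). With the 5% mitochondrial limit, *Cxcl10* over *Cxcl9* was 0.96 in classical monocytes, -0.28 in macrophages and 1.33 in ZsG-positive classical monocytes of the T cell sort, *Cxcr6* over *Cxcr3* in Treg -1.92, *Cxcr3* in pDC 46.2 CPM, and the *Cxcl10* gate ratio -1.09 in classical monocytes (CD45), -2.39 in Treg and -0.90 in CD8-EM. Means over cells gave 4.19 for *Cxcl10* over *Cxcl9* in non-classical monocytes, -1.05 in DC1, 1.10 for *Cxcl16* in mature DC over macrophages, -1.69 for *Cxcr6* over *Cxcr3* in Treg, and *Cxcl10* gate ratios of -1.30 and 0.34 in classical monocytes of the CD45 and T cell sorts and -1.48 in Treg. TMM scaling gave 0.72 for *Cxcl16* in mature DC over macrophages and *Cxcl10* gate ratios of -1.16 and 0.06 in classical monocytes of the CD45 and T cell sorts. Stricter cells gave -1.05 for *Cxcl10* over *Cxcl9* in DC1 and -2.39 for the *Cxcl10* gate ratio in Treg, and totals without mitochondrial and ribosomal genes 87.2 CPM of *Cxcr3* in pDC.

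Genes past 2-fold numbered 1876 in classical monocytes of the CD45 sort and 560 in Treg of the T cell sort, 6083 and 4211 with at least 1 UMI, and 733 and 48 with at least 100 UMIs. Without thinning, shares were 88.0% (*Cxcl9*, macrophages), 94.7% (*Cxcl16*, mature DC), 65.0% (*Cxcr6*, CD8-EM) and 68.3% (*Cxcr3*, Th1-like CD4 cells), against 60.5%, 44.7%, 28.4% and 15.9% in that order at 1000 UMIs. Shares of cells with both genes came to 83.9% for *Cxcl10* in macrophages with *Cxcl9*, 95.1% for *Cxcl16* in mature DC with *Cxcl9* and 73.5% for *Cxcr6* in CD8-EM with *Cxcr3* without thinning, and to 53.6%, 29.6% and 30.2% at 1000 UMIs. Without the cell with most *Cxcl10* in each library, an alternative chosen after seeing the data, the *Cxcl10* gate ratio was 0.07 in classical monocytes and -1.32 in Treg of the T cell sort, and the level in ZsG-negative Ly49 T cells of that sort 315 CPM.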

Other observations

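Of the cells of the ZsG-negative gate of the T cell sort, 24 were melanoma cells by *Mlana*, *Pmel* and *Dct*, and no UMI of *Cxcl9*, *Cxcl10* or *Cxcl16* was counted in them. In the *Cd209d*-led dendritic cells of that sort, *Cxcr3* stood at 27.2 CPM (35 ZsG-negative cells) and 26.2 CPM (177 ZsG-positive cells). Within the ZsG-positive cells it was 45.6 CPM in the cluster led by *Cd209d* and *Atp1b1* and 7.26 CPM in the cluster led by *Apod* and *Cyp7b1*.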
